A study of Mus musculus with 6 samples.

Results

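The cytosolic ribosome is built from ribosomal RNA and a fixed set of ribosomal proteins, most of them present once in each particle. Proteins of the small subunit (gene names beginning Rps) hold and decode the messenger RNA, and proteins of the large subunit (Rpl) surround the site of peptide bond formation and the tunnel through which the new chain leaves. Their messenger RNAs are among the most abundant of most cells, and many begin with a run of pyrimidines, the 5′ terminal oligopyrimidine (TOP) element, through which mTOR signalling and LARP1 set their translation. In the heart, cardiomyocytes divide and grow around birth and in the adult mostly no longer divide, while fibroblasts keep the capacity to proliferate.

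The members described here were chosen by name. They are the genes of the array's annotation whose symbol is Rpl or Rps followed by a number, plus Rplp0, Rplp1, Rplp2 and Rpsa. Rpl3, Rpl3l, the Rps6 kinases, Rps19bp1 and pseudogenes were left out. The annotation listed 78 such symbols. Of these, 48 had a probe set annotated to that gene alone, and those 48, of 18193 genes tested, are the members: 23 of the small and 25 of the large subunit. The other 30 lay only on probe sets shared with further symbols, 23 of them with pseudogenes or provisional symbols alone. Of the 48 members, 46 passed the filter on low values used as an alternative setting (mean above 5.63), and Rps16 and Rpl39l did not.

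The study profiled isolated mouse heart cells on 6 one-colour Affymetrix arrays, 2 arrays in each of 3 groups, all from the C57BL/6J strain. Neonatal cardiomyocytes and neonatal cardiac fibroblasts came from hearts at postnatal day 1, from mice of both sexes, and the labels give Percoll (a density gradient) as the means of separation. Adult cardiomyocytes came from males of 8 weeks, by Langendorff perfusion of the heart. Per the labels the cells were released with trypsin and collagenase, and a step on culture dishes was checked with the mitochondrial dye TMRM for remaining cardiomyocytes. Age, sex and isolation differ together between adult and neonatal cells and cannot be told apart. Whether a group's arrays represent separate preparations is not stated in the labels, so every p-value reflects only the variation between these arrays, possibly technical. For both neonatal replicate 1 arrays the title gives the opposite cell type, and the source name, repeated in the cell type field, was followed here.

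Cell type markers were summed on the linear scale and are given as log2 of the sum, for neonatal cardiomyocytes, fibroblasts and adult cardiomyocytes in that order. The 12 cardiomyocyte markers summed to 17.61 and 17.36, to 13.10 and 15.38, and to 17.69 and 17.64. The 13 fibroblast markers summed to 14.35 and 14.30, to 16.53 and 16.15, and to 12.20 and 14.10. On the neonatal replicate 1 arrays, whose titles give the opposite cell type, both sets of markers followed the source name. The titles' grouping, used below as an alternative, therefore puts arrays with unlike cell type markers in the same group. The 12 leukocyte markers were highest in the fibroblast arrays, at 15.78 and 13.14, against 9.78 to 12.15 elsewhere. Fibroblast replicate 2 thus carried more cardiomyocyte message and less leukocyte message than fibroblast replicate 1, and adult replicate 2 more fibroblast message than adult replicate 1. The 17 measured cell cycle genes summed to 14.27 and 13.69, to 13.88 and 14.38, and to 10.92 and 11.63.

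Most members lay near the top of the log2 scale. The mean over the 6 arrays was above 12 for 34 of the 48 and below 10 for 12, on arrays whose highest probe set read 14.41 to 14.60. Those low readings belong to particular probe sets and are not set against other genes. The 3 members with the highest mean were Rps29, Rps2 and Rpl37a, and the 3 with the lowest were Rps16, Rpl39l and Rpl12. Ribosomal protein genes have many processed pseudogenes and near-identical copies, so a probe set may also read those. Of the 48 chosen probe sets, 32 carry the manufacturer's _x_at, _s_at or _a_at suffix, which marks probes that can match more than 1 transcript, of the same gene or of others.

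The sequence at the start of transcription is shown first, because the TOP element there is the feature ribosomal protein genes are known to share and the naming rule did not use it. RefSeq's promoter table (build GRCm38.p6) held 42 of the 48 members. Where a gene had several annotated starts, the start with the longest run was taken, for members and all genes alike. A gene with more starts has more occasions for a run, and the number of starts per gene was not compared. An unbroken run of at least 5 C or T letters containing the annotated start base, read on the gene's own strand, was present in 13 of the 42 (31.0%), against 11.8% of 27025 genes in the table. The start base itself was C in 15 members (35.7%, against 18.2%), and 8 members (19.0%, against 6.48%) had both. Windows of 30 bases are printed 5′ to 3′ for the member with the longest run, a large subunit exit tunnel protein, the member with the strongest test below, the main signalling substrate, and 2 pairs of a standard gene and its minor paralog (the l at the end of the name). The annotated start is the 16th base, and capitals mark the run of C and T that contains it.
Rpl7a, chr2:26910792-26910821, plus strand: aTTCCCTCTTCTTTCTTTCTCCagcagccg
Rpl35, chr2:39005117-39005146, minus strand: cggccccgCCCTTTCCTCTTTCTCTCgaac
Rpl14, chr9:120571502-120571531, plus strand: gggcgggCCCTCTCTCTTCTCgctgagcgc
Rps6, chr4:86857353-86857382, minus strand: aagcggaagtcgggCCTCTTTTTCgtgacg
Rps27, chr3:90213634-90213663, minus strand: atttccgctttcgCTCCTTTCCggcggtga
Rps27l, chr9:66946071-66946100, plus strand: ccactcctccccgccgcctctatcccggaa
Rpl39, chrX:37085208-37085237, minus strand: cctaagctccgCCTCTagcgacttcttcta
Rpl39l, chr16:10170213-10170242, plus strand: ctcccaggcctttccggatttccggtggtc
The run was 21 bases long in Rpl7a, 18 in Rpl35, 14 in Rpl14, 10 in Rps6, 9 in Rps27 and 5 in Rpl39, and the start base of both paralogs shown is neither C nor T. The windows are not typical of the members: every standard gene shown has a run of at least 5, against 13 of 42 members. Among those not shown, Rpl22 and its paralog Rpl22l1 both had a run of 0, as did the exit tunnel genes Rpl4 and Rpl19. A run is a match of letters at an annotated start, not a measured TOP element, and its absence says only that these letters are not in this window.

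The members were highest in neonatal fibroblasts, lower in neonatal cardiomyocytes and lowest in adult cardiomyocytes. The median log2 value over the 48 members was 13.35 and 13.53 on the fibroblast arrays, 12.95 and 13.15 on those of neonatal cardiomyocytes, and 12.25 and 12.48 on those of adult cardiomyocytes. The 3 groups did not overlap in this median, and the pooled SD between arrays of a group was 0.14. Group means followed that order in 45 of the 48 members (93.8%), as they did in 25.3% of all genes. Fibroblast replicate 2 had the highest value for 36 members, and adult replicate 1 the lowest for 39. The values are levels relative to the rest of each array. In cell populations of this kind, fewer cells of a type and less RNA per cell cannot be told apart.

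**Figure D1:**
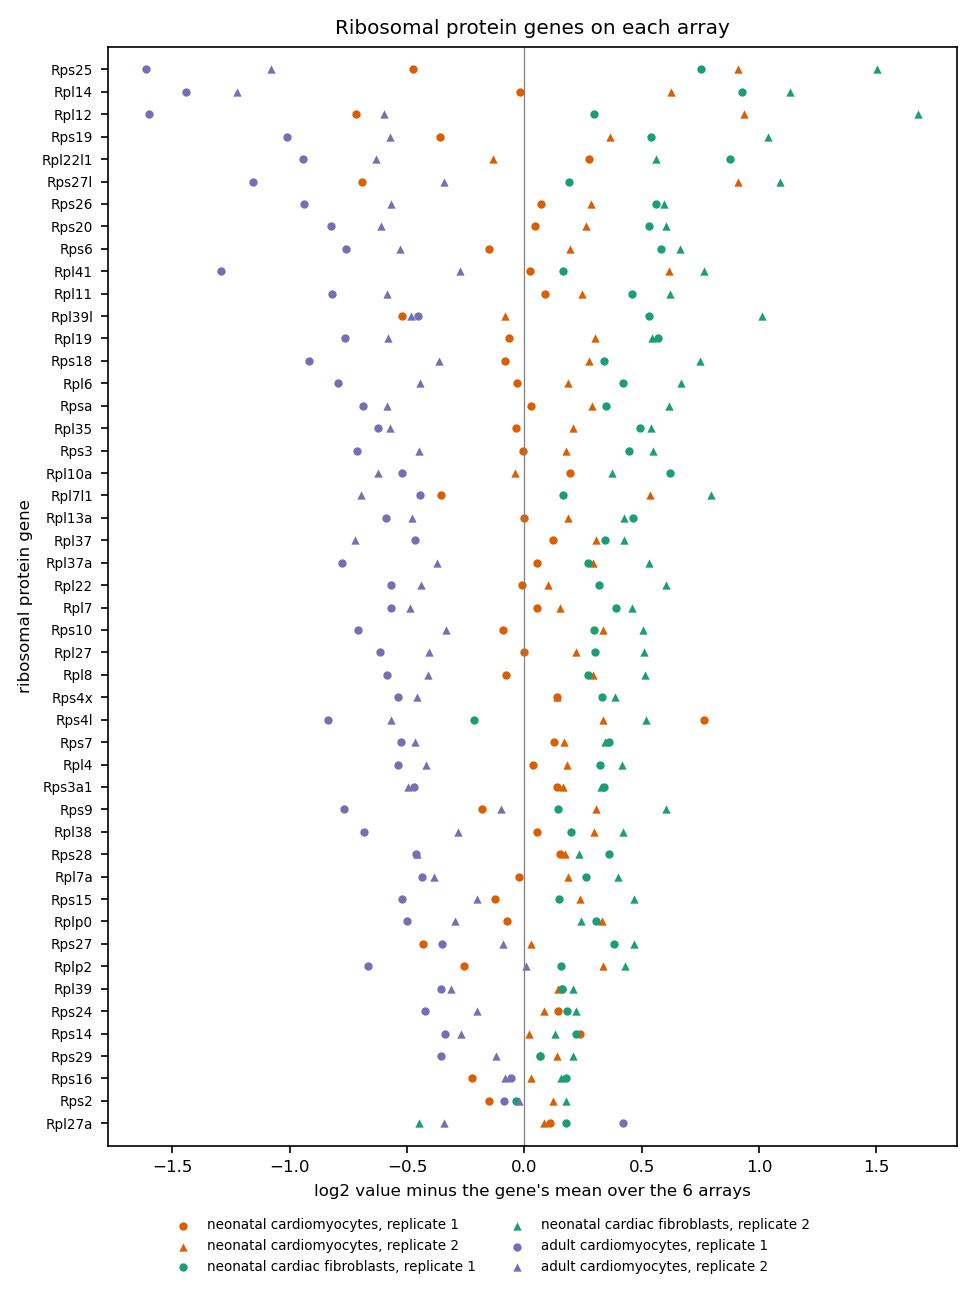
Each row is 1 of the 48 ribosomal protein genes, each point 1 array, and the horizontal axis is the log2 value minus that gene's mean over the 6 arrays. Rows are ordered by the adult cardiomyocyte minus fibroblast difference; adult arrays lie at the left for most genes, and Rpl27a, Rps2 and Rps16 at the bottom show little separation.

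Between the arrays of a group, most members moved together. The replicate 2 array was the higher for 40 of 48 members in neonatal cardiomyocytes, 37 in fibroblasts and 41 in adult cardiomyocytes, with median gaps of 0.23, 0.14 and 0.21. Over all genes the replicate 2 array was the higher for 50.7%, 53.8% and 51.4%. The largest gaps within a group belonged to Rpl12 (1.65), Rps27l (1.60) and Rps25 (1.38), all between the neonatal cardiomyocyte arrays. The 3 comparisons below share arrays pairwise, and each is given with its own values.

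The comparison of adult cardiomyocytes with neonatal fibroblasts, which differ in cell type and age at once, gave the largest differences. In limma's moderated test with Benjamini-Hochberg adjustment over 18193 genes, 29 of 48 members fell at an adjusted p below 0.05 (60.4%) and 0 rose, where 11.0% of all genes were called lower and 10.1% higher. The median difference over the members was -0.96 (a 1.94-fold lower level; quartiles -1.23 and -0.75), and over all genes it was 0.09. The mean was lower in 47 of 48 members (44.0% of all genes), and both adult arrays lay below both fibroblast arrays in 46 (30.2% of all genes). At an unadjusted p under 0.05, 41 members were lower (19.3% of all genes). Among the 29 that fell, folds ran from 1.67 to 5.56 with a median of 2.11, and adjusted p from 0.0092 to 0.0437. The largest folds, of Rps25 (5.56) and Rpl14 (5.15), came from probe sets with a mean below 10. Among the 34 members with a mean above 12, the largest fall was that of Rps19 (-1.58, 2.99-fold). The large subunit had 17 of 25 members that fell (median of all 25, -0.98), and the small subunit 12 of 23 (median -0.85). Without adult replicate 1 or 2 the count was 0 (29 and 36 members at an unadjusted p under 0.05), without fibroblast replicate 1 or 2 it was 1 and 2, with the titles' grouping 0 (32 unadjusted), and without both neonatal arrays whose titles disagree 1. With each array centred on its member median, which brought the median difference to 0.11, 6 passed, 4 of them higher, and with plain _at probe sets only 9 of 25 passed.

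**Figure D2:**
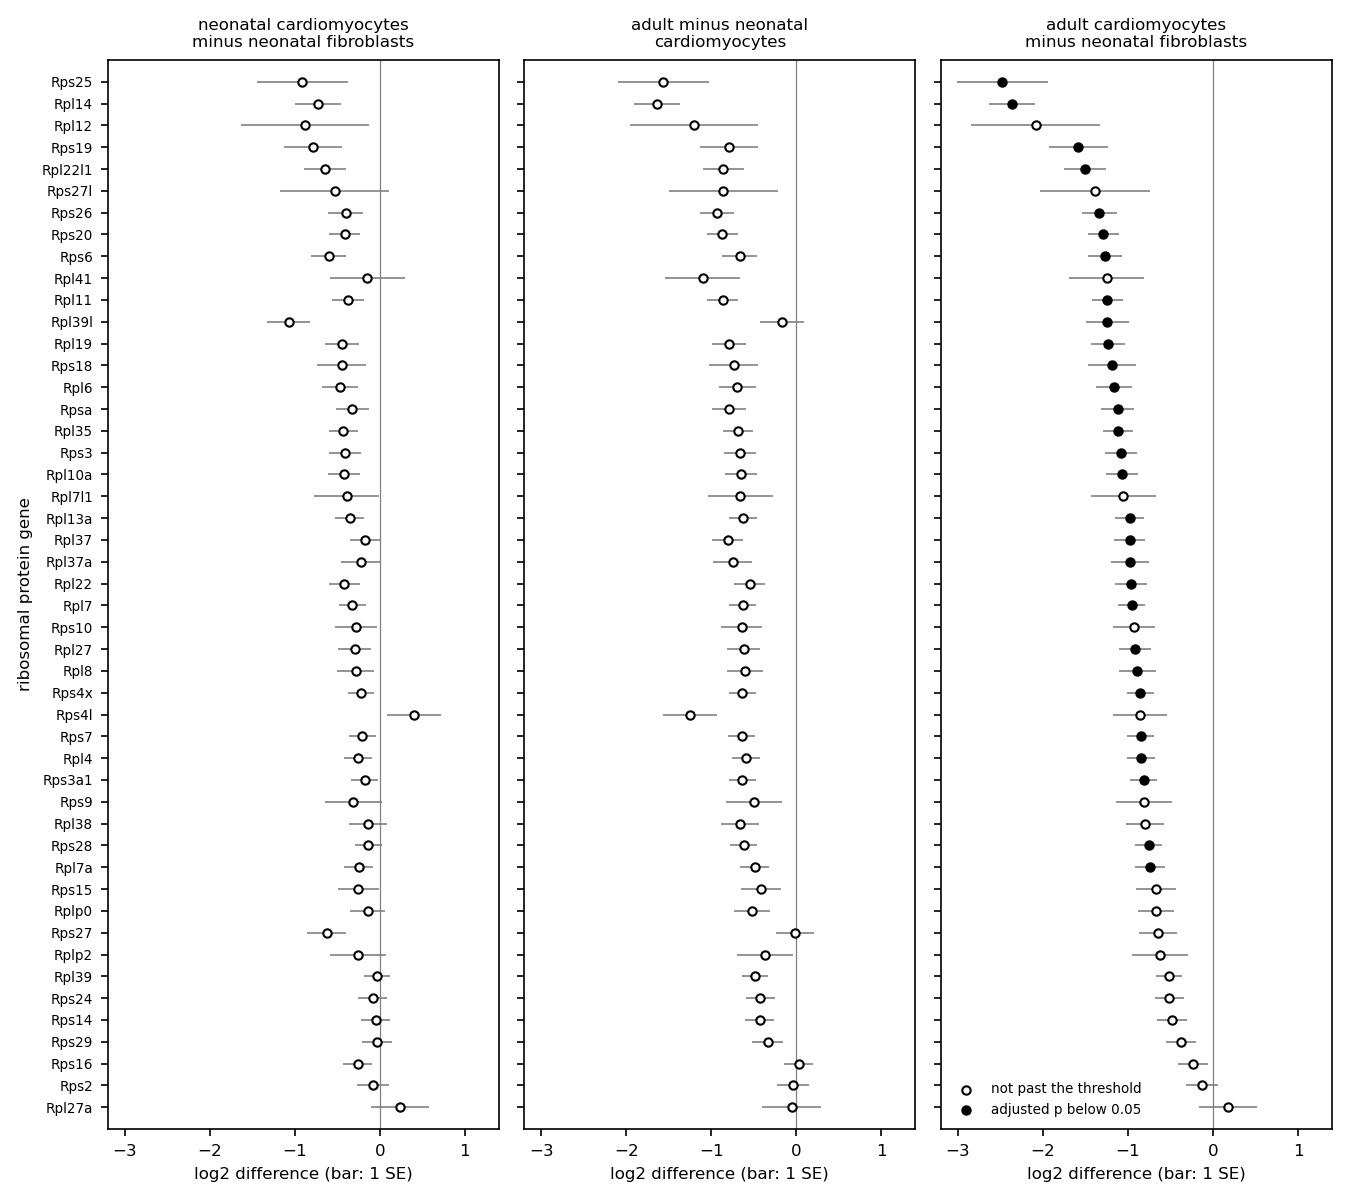
Points are log2 differences between group means for the 48 ribosomal protein genes in the 3 comparisons, bars are 1 standard error from limma (2 arrays in each group), and filled points have an adjusted p below 0.05. Filled points occur only in the adult cardiomyocyte minus fibroblast panel, where 29 genes are filled.

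The member with the lowest adjusted p was Rpl14, a large subunit protein. It read 7.93 and 8.14 in fibroblasts, 6.98 and 7.62 in neonatal cardiomyocytes, and 5.56 and 5.78 in adult cardiomyocytes. The 3 groups did not overlap, and Rpl14 fell by 2.36 ± 0.27 (SE, limma) between fibroblasts and adult cardiomyocytes, 5.15-fold, with an adjusted p of 0.0092. Rps25, a small subunit protein known for its role in internal initiation on viral messages, had the largest difference. Its fibroblast arrays read 8.89 and 9.64, its neonatal cardiomyocyte arrays 7.66 and 9.05, and its adult arrays 6.53 and 7.06. The adult arrays lay below all others while the neonatal groups overlapped, and the difference was -2.47 ± 0.54 (SE, limma; adjusted p 0.0341). Rpl14 and Rps25 were each read from 1 probe set with a mean below 10.

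Rps26, which sits at the exit of the messenger RNA channel, read 13.52 and 13.55 in fibroblasts, 13.03 and 13.24 in neonatal cardiomyocytes, and 12.02 and 12.39 in adult cardiomyocytes. Rps20 read 13.66 and 13.74, then 13.18 and 13.39, then 12.31 and 12.52 in the same order. The groups were fully separated for both genes. Rps26 fell by 1.33 ± 0.20 and Rps20 by 1.29 ± 0.18 (SE, limma), with adjusted p of 0.0154 and 0.0135. All 4 probe sets of Rps20 gave a lower adult mean.

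Rps6, the small subunit protein that S6 kinases phosphorylate downstream of mTOR, read 9.62 and 9.70 in fibroblasts, 8.88 and 9.23 in neonatal cardiomyocytes, and 8.27 and 8.50 in adult cardiomyocytes. The 3 groups did not overlap, and Rps6 fell by 1.27 ± 0.20 (SE, limma; adjusted p 0.0170). Its other probe set, with a mean of 3.98, gave 0.13. Rps3, at the entry of the messenger RNA channel, fell by 1.08 (adjusted p 0.0199, limma). Both Rps15 (-0.67; adjusted p 0.107, limma) and Rps2 (-0.13; adjusted p 0.661), also on that path, did not pass. Of the 6 listed genes of the signalling substrate and messenger RNA path, 4 fell, and their median was -1.17.

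In the large subunit, Rpl11 binds the 5S ribosomal RNA together with Rpl5 and, outside the ribosome, binds the p53 regulator MDM2. It read 13.09 and 13.25 in fibroblasts, 12.72 and 12.88 in neonatal cardiomyocytes, and 11.82 and 12.05 in adult cardiomyocytes. These groups were separated, and Rpl11 fell by 1.24 ± 0.18 (SE, limma; adjusted p 0.0145). Rpl5 was only on shared probe sets. With those added, a choice made after the data were seen, its difference was -0.95 (adjusted p 0.0182, limma).

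Around the peptide exit tunnel, Rpl19 (13.60 and 13.57, 12.96 and 13.33, 12.27 and 12.45 in the same order of groups) fell by 1.23 (adjusted p 0.0176, limma). Rpl35, whose start is printed above, read 13.57 and 13.62, then 13.04 and 13.28, then 12.45 and 12.50, and fell by 1.12 (adjusted p 0.0158, limma). For both genes the groups were separated. Rpl4, which lines the tunnel's narrow part, fell by 0.85 (adjusted p 0.0273, limma). Rpl39, a small protein of the tunnel, differed by -0.52 (adjusted p 0.0749), so that 3 of the 4 measured members of this list fell.

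The acidic stalk, which recruits elongation factors, had no measured member past the threshold. Rplp1 was only on shared probe sets, and with those added its difference was -0.94 (adjusted p 0.0727, limma). Rplp0, the base of the stalk, read 13.79 and 13.72 in fibroblasts, 13.41 and 13.81 in neonatal cardiomyocytes, and 12.98 and 13.19 in adult cardiomyocytes, a difference of -0.67 (adjusted p 0.0827, limma). Its adult arrays were lowest and its neonatal groups overlapped. Rplp2 differed by -0.62 (adjusted p 0.235, limma), and its adult replicate 2, at 13.39, lay above neonatal cardiomyocyte replicate 1, at 13.13. Rpl12, beside the stalk, read 7.05 and 8.43, 6.04 and 7.69, and 5.15 and 6.15, a difference of -2.09 with the widest standard error of any member (0.75; adjusted p 0.113, limma). Its arrays within a group lay up to 1.65 apart, and the adult arrays still lay below both fibroblast arrays.

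Rps19 is the gene most often mutated in Diamond-Blackfan anaemia, an inherited failure of red cell production. It read 13.05 and 13.55 in fibroblasts, 12.15 and 12.87 in neonatal cardiomyocytes, and 11.50 and 11.94 in adult cardiomyocytes. The groups did not overlap, and Rps19 fell by 1.58 ± 0.34 (SE, limma; adjusted p 0.0339). Of the 11 members that are Diamond-Blackfan genes, 7 fell, Rps26, Rpl11 and Rpl35 among them, with a median of -0.92, close to the median of all members.

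A few members showed little or no difference. Rps2 read 13.79 and 14.01 in fibroblasts, 13.68 and 13.95 in neonatal cardiomyocytes, and 13.74 and 13.81 in adult cardiomyocytes, so that all 3 groups overlapped (95% interval of the adult minus fibroblast difference, -0.61 to 0.36). Rps29, with the highest mean of all members, read 14.04 and 14.18, 14.04 and 14.12, and 13.62 and 13.86 with only the adult arrays apart (difference -0.37; adjusted p 0.197, limma). Rpl27a was the 1 member with a higher adult mean, at 0.18 (adjusted p 0.732, limma), and its adult arrays, 9.07 and 8.31, enclosed all but 1 of its other values. Rps16 read 3.36 to 3.76 on all arrays, near the bottom of the scale. Rps14, at -0.48 (adjusted p 0.111, limma), lay below 0 without passing. Rpl41 did not pass either (adjusted p 0.106, limma), but its difference was not small. At -1.25 ± 0.44 (SE, limma) it lay further below 0 than the median of all members, and its adult arrays read 12.11 and 13.13. Rpl41 had 4 probe sets, and 2 gave the opposite sign.

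Within the members with a mean above 12, the difference was smaller nearer the top of the scale. Over these 34 genes the correlation of mean level with the adult minus fibroblast difference was 0.635 (Pearson) and 0.584 (Spearman), and over all 48 members it was 0.196 and 0.375. The mean level, which also set the cut at 12, includes the adult and fibroblast arrays that give the difference. Level and difference are therefore not independent, and part of the correlation can follow from that construction. It is a description over genes that share the same 6 arrays and the same normalization. Compression of differences near the top of the array range was not measured. All 34 had a lower adult mean and 23 fell, with a median of -0.92. Of 210 other genes with a mean above 12, 37.6% had a lower adult mean and 14.3% were called lower.

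**Figure D3:**
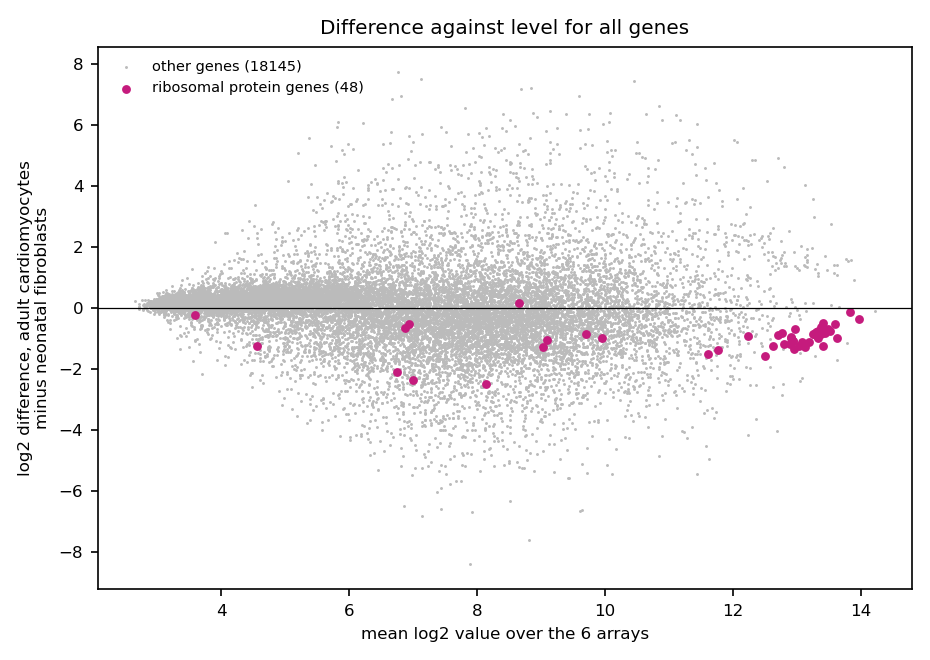
Each point is 1 gene, placed by its mean log2 value over the 6 arrays and its log2 difference, adult cardiomyocytes minus neonatal fibroblasts; the 48 ribosomal protein genes are large points. Most of them form a band below 0 at the upper end of the level axis, where other genes spread to both sides.

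The minor paralogs replace or resemble a standard subunit protein, and 5 of the 8 listed were measured. Rpl22l1, the paralog of Rpl22, read 12.48 and 12.17 in fibroblasts, 11.89 and 11.48 in neonatal cardiomyocytes, and 10.67 and 10.98 in adult cardiomyocytes. The groups were separated, and Rpl22l1 fell by 1.50 ± 0.24 (SE, limma; adjusted p 0.0174). Its partner Rpl22 fell by 0.97 (adjusted p 0.0254, limma), with 1 of its 3 probe sets at the opposite sign. Rpl39l read 5.09 and 5.58 in fibroblasts against 4.04 and 4.48 in neonatal cardiomyocytes and 4.11 and 4.08 in adult ones. Its cardiomyocyte arrays of both ages overlapped below the fibroblast arrays, and it fell by 1.24 (adjusted p 0.0299, limma) between fibroblasts and adult cardiomyocytes. These cardiomyocyte values lay near the arrays' lower quartiles (4.19 to 4.37), where the size of a difference is uncertain.

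Rps27l, a p53 target, read 11.95 and 12.85 in fibroblasts, 11.07 and 12.67 in neonatal cardiomyocytes, and 10.61 and 11.42 in adult cardiomyocytes. The arrays of a group lay up to 1.60 apart, and its difference of -1.39 did not pass (adjusted p 0.187, limma); Rps27 differed by -0.64 (adjusted p 0.106). Rps4l read 9.49 and 10.22, 10.47 and 10.04, and 8.87 and 9.14. Adult cardiomyocytes were lowest and the neonatal groups overlapped, with -0.85 against fibroblasts (adjusted p 0.119, limma), while Rps4x fell by 0.86 (adjusted p 0.0227, limma). Rpl7l1, a factor related to Rpl7, differed by -1.05 (adjusted p 0.113, limma). Of 14 members that fell and had more than 1 probe set, 9 had every probe set at the same sign. Over all 104 probe sets of the members, 94 had a lower adult mean and the median was -0.91.

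Members with and without a run of C and T at the start were both lower. The 13 with a run had a median adult minus fibroblast difference of -0.79 (range -2.36 to 0.18; 5 fell), and the 29 without one had -1.05 (range -2.47 to -0.13; 21 fell). Rpl14, with its run of 14 bases, and Rpl27a, with 20, lay at the opposite ends of the first set. The difference between the sets was not tested.

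Within cardiomyocytes, the comparison of adult with neonatal cells concerns age, sex and isolation together. In limma 0 members passed an adjusted p of 0.05, where 1.22% of all genes were called lower and 1.08% higher. At an unadjusted p under 0.05, 31 members were lower (64.6%; 11.7% of all genes) and 0 higher. The median over the members was -0.64 (1.56-fold lower; quartiles -0.79 and -0.50), and over all genes 0.09. The mean was lower in 47 members (42.6% of all genes), and both adult arrays lay below both neonatal arrays in 39 (23.8% of all genes). Small and large subunit members had medians of -0.64 and -0.65. The count was 1 with a filter on low values or arrays centred on all genes or on the members, and the last of these brought the median to 0.04.

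The largest of these differences belonged to Rpl14 (-1.64; 95% interval -2.32 to -0.95; adjusted p 0.0566, limma) and Rps25 (-1.56; interval -2.93 to -0.19; adjusted p 0.181, limma). Rps4l followed at -1.25 (interval -2.06 to -0.45), with Rpl12 at -1.21 and Rpl41 at -1.10. Of these largest differences, only that of Rpl41 came from a member with a mean above 12. Rps26 (-0.93), Rps20 (-0.87) and Rpl11 (-0.87) had adjusted p of 0.0886, 0.0823 and 0.0845 in limma, and their adult arrays lay below both neonatal arrays. At the other end stood Rps16 (0.03), Rps27 (-0.02), Rps2 (-0.04), Rpl27a (-0.06) and Rpl39l (-0.17; interval -0.82 to 0.48). For Rps27, the adult arrays at 6.53 and 6.79 lay between the neonatal ones at 6.45 and 6.91.

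Between the neonatal cell types, the members were lower in cardiomyocytes by a smaller amount. In limma 0 members passed, where 0.143% of all genes were called lower and 0.676% higher; 5 had an unadjusted p under 0.05, all lower (7.31% of all genes). The median over the members was -0.30 (1.23-fold lower; quartiles -0.43 and -0.18), and over all genes -0.02. The mean was lower in 46 members (52.6% of all genes), and both cardiomyocyte arrays lay below both fibroblast arrays in 29 (60.4%; 23.2% of all genes). Without neonatal cardiomyocyte replicate 1 the median was -0.18, and without fibroblast replicate 2 it was -0.19. With the titles' grouping it was 0.03, and with arrays centred on their member median 0.09.

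Rpl39l had the largest neonatal difference (-1.07; 95% interval -1.72 to -0.42; adjusted p 0.133, limma), followed by Rps25 (-0.91), Rpl12 (-0.88), Rps19 (-0.79) and Rpl14 (-0.73), with adjusted p of 0.504, 0.678, 0.352 and 0.280. Without neonatal cardiomyocyte replicate 1 these 4 were -0.22, -0.05, -0.42 and -0.41, and with the titles' grouping all 4 were above 0. Of Rpl39l and these 4, only Rps19 had a mean above 12. For Rpl39l the difference was -1.24 between adult cardiomyocytes and fibroblasts and -0.17 between adult and neonatal cardiomyocytes, so its low arrays were those of cardiomyocytes at both ages. Rps4l (0.40; interval -0.41 to 1.21) and Rpl27a (0.24) were the 2 members with a higher cardiomyocyte mean. Rps29 and Rpl39 (both -0.03) and Rps14 (-0.05) lay near 0. Rpl39 read 7.10 and 7.08 in neonatal cardiomyocytes, 7.10 and 7.15 in fibroblasts, and 6.59 and 6.63 in adult cardiomyocytes, so that only the adult arrays stood apart.

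Levels of other cells' markers moved with these groups. Between adult cardiomyocytes and fibroblasts 7 of 13 fibroblast markers and 1 of 12 leukocyte markers fell, and 9 of 12 cardiomyocyte markers rose. All 12 leukocyte markers were lower there (median -3.09), as were all 8 epicardial markers, of which 3 fell (median -2.89). Of 12 endothelial markers 4 rose (median 2.58), and of 9 smooth muscle and pericyte markers 3 rose and 2 fell. Between adult and neonatal cardiomyocytes 1 epicardial marker fell and all 8 were lower. All 17 cell cycle genes fell between adult cardiomyocytes and fibroblasts (median -4.20), and 14 of 17 fell between adult and neonatal cardiomyocytes (median -4.21). Between the neonatal cell types 0 cell cycle genes passed in limma (1 at an unadjusted p under 0.05; median -0.05). The part of these markers in the members' differences was not tested.

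The 23 genes on probe sets shared with pseudogenes or provisional symbols, added after the data were seen, lay close to the members. All 23 had a lower adult than fibroblast mean, 15 fell, and their median was -0.93. Their medians were -0.60 between adult and neonatal cardiomyocytes and -0.23 between the neonatal cell types. With them included, 44 of 71 genes fell between fibroblasts and adult cardiomyocytes.

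Other genes of translation with known TOP messages were mostly lower in adult cells as well. Of 18 measured, 17 had a lower adult than fibroblast mean, 6 fell between fibroblasts and adult cardiomyocytes and 0 rose, with a median of -0.70 (quartiles -1.07 and -0.38). Pabpc1, the cytoplasmic poly(A)-binding protein, fell by 1.93 (adjusted p 0.0301, limma), and the elongation factor gene Eef1a1 by 1.69 (adjusted p 0.0286). Nap1l1, a histone chaperone, fell by 1.57 and Eef1b2, an exchange factor for Eef1a, by 1.34 (adjusted p 0.0216 and 0.0132). Fau, which encodes a small subunit protein fused to a ubiquitin-like domain, differed by -1.15 (adjusted p 0.192, limma). In neither of the other comparisons did any of the 18 pass (8 and 1 at an unadjusted p under 0.05), and the medians were -0.49 between adult and neonatal cardiomyocytes and -0.16 between the neonatal cell types.

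Ribosome assembly genes were also mostly lower in adult cells. Of 39 measured, 35 had a lower adult than fibroblast mean, 15 fell between fibroblasts and adult cardiomyocytes and 0 rose, with a median of -0.96 (quartiles -1.38 and -0.43). Nhp2 fell by 1.88 and Nolc1 by 1.62 (adjusted p 0.0291 and 0.0481, limma); both act in the modification of ribosomal RNA. The RNA helicase Ddx21 fell by 1.61 and the large subunit assembly factor Nip7 by 1.60 (adjusted p 0.0274 and 0.0145). Between adult and neonatal cardiomyocytes Npm1, the nucleolar chaperone nucleophosmin, fell by 1.30 (adjusted p 0.0453, limma), from 12.38 and 12.55 to 11.32 and 11.01, and the median of the list was -0.67. RNA polymerase I and its factors moved less, with a median of -0.21 between fibroblasts and adult cardiomyocytes. Taf1d fell by 1.70 and Polr1c by 0.88 (adjusted p 0.0481 and 0.0436, limma). The other 10 of 12 did not pass, where 11.0% of all genes were called lower.

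**Figure D4:**
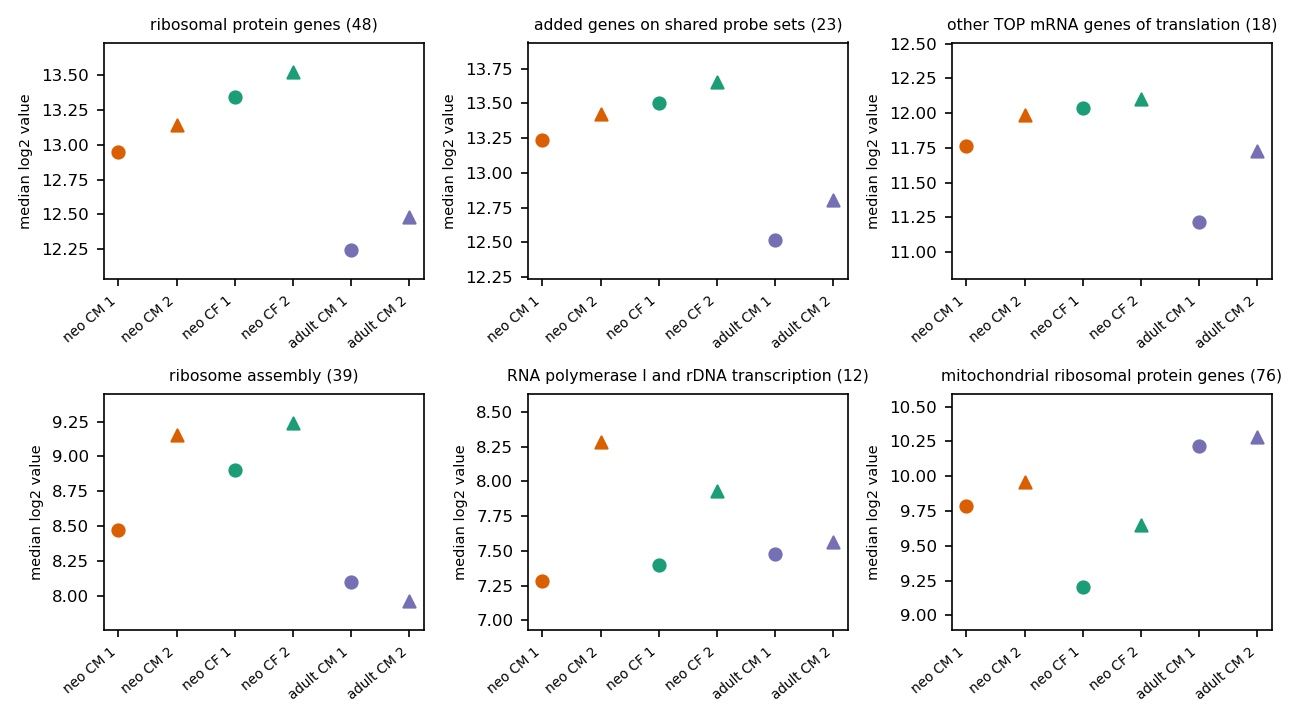
Each panel shows the median log2 value of 1 gene list on each array (neo CM, neonatal cardiomyocytes; neo CF, neonatal cardiac fibroblasts; adult CM, adult cardiomyocytes), with the number of genes in brackets and a vertical axis of its own. Adult arrays are lowest for the ribosomal protein and ribosome assembly genes and highest for the mitochondrial ribosomal protein genes.

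Of 21 mTOR, LARP1 and MYC regulators of the TOP programme, 3 rose and 2 fell between fibroblasts and adult cardiomyocytes, shares near those of all genes (10.1% and 11.0%). Deptor, an inhibitor bound to mTOR, rose by 1.97 (adjusted p 0.0111, limma) and Eif4e, the cap-binding protein, by 1.16 (adjusted p 0.0167), and Mtor itself rose by 0.90 (adjusted p 0.0215). Eif4ebp2, a repressor of Eif4e, fell by 1.63, and Mxd4, an antagonist of MYC at MAX, by 1.04 (adjusted p 0.0114 and 0.0370, limma). Deptor also rose between neonatal and adult cardiomyocytes, from 7.20 and 6.83 to 8.55 and 8.75 (1.64; adjusted p 0.0492, limma).

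The muscle paralog of a ribosomal protein went against the members. Rpl3l, which takes the place of Rpl3 in adult striated muscle ribosomes and was left out of the members by the rule, read 3.97 and 4.37 in fibroblasts, 5.48 and 5.57 in neonatal cardiomyocytes, and 11.56 and 11.82 in adult cardiomyocytes. It rose against fibroblasts and against neonatal cardiomyocytes (adjusted p 0.0041 and 0.0070, limma). Its fibroblast values lay near the arrays' lower quartiles (4.19 to 4.37), so no size is given for its difference. No probe set used here was annotated to Rpl3 alone.

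Ribosomal proteins of the mitochondrion, which build a separate ribosome for the mitochondrial genome's messages, moved the other way. Of 76 measured, 33 rose and 0 fell between fibroblasts and adult cardiomyocytes, with a median of 0.83 against -0.96 for the cytosolic members. In neither of the other comparisons did any pass in limma (15 and 28 at an unadjusted p under 0.05). Their medians were 0.33 between adult and neonatal cardiomyocytes and 0.52 between neonatal cardiomyocytes and fibroblasts, against -0.64 and -0.30 for the cytosolic members.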

How the data were processed

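The authors deposited log2 expression values per probe set. The submitters' processing notes name RMA, which subtracts background, makes array distributions alike by quantiles and combines probes. It gives no detection call, and its version was not stated in the sources used here. The platform annotation named 34945 of 45101 probe sets to 1 gene. Each gene was read from its probe set of highest mean (6 arrays), control probe sets left out. All 6 arrays entered 1 linear model with 3 group means (limma 3.58.1, lmFit and eBayes; R 4.3.3), with 3 residual and 2.18 prior degrees of freedom, two-sided tests and Benjamini-Hochberg adjustment over 18193 genes at 0.05; the script was tested on simulated data. "Rose" and "fell" mean past that threshold. Their number, 2 arrays a group, limits the precision.

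The members, the gene lists and the tests were chosen with earlier results of these data known. Named members are, in each comparison, up to 10 that passed and the 5 highest and 5 lowest differences, the 3 highest and 3 lowest mean levels, the 3 largest gaps within a group and the role lists; of each pathway list, at most 4 that passed. Rpl22, Rpl7, Rpl7a, Rps4x and the mitochondrial genes fall outside that rule and were chosen after their values were seen. Sequences are RefSeq's, build GRCm38.p6; the array files name no build.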

Additional observations from a re-analysis of the deposited data

How the results depend on the processing

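In the adult cardiomyocyte minus fibroblast comparison, the 29 members that fell became 36 with a replicate block, 31 with an intensity trend, 28 with the mean over probe sets, 27 with the filter on low values, and 25 with arrays centred on all genes or with the 4 compared arrays alone. Leaving out 1 array gave 0 to 25 (medians -1.02 to -0.82), the titles' grouping 0, removal of both neonatal arrays whose titles disagree 1, plain _at probe sets 9 of 25, and arrays centred on the ribosomal protein genes 6. Adding the shared probe sets, a choice made after seeing the data, gave 44 of 71. The median was -0.77 with the titles' grouping, -0.81 with arrays centred on all genes and 0.11 with arrays centred on the members. That centring raises every member alike, so the values of Rps16 (0.84, near the floor), Rps2 (0.95) and Rps29 (0.70) turned above 0 by its construction. In the adult minus neonatal cardiomyocyte comparison the count was 1 with a replicate block, the filter on low values, arrays centred on all genes, or arrays centred on the members, and 0 when any 1 array was left out (13 to 30 at an unadjusted p under 0.05 in limma). Its median was -0.79 with the titles' grouping, 0.0405 with arrays centred on the members and -0.73 to -0.53 without 1 array. Between the neonatal cell types the count was 0 under every alternative run (0 to 9 at an unadjusted p under 0.05 in limma), and the median was 0.027 with the titles' grouping, 0.0853 with arrays centred on the members and -0.45 to -0.18 without 1 array. The cause of the other changes was not tested. Labels do not say that replicate numbers pair the arrays, and each comparison has only 2 numbers; deviations of same-numbered arrays correlated at 0.18 to 0.27 over 18193 genes, and of the named results the block added Rpl12 (adult minus fibroblast, adjusted p 0.0111) and Rpl14 (adult minus neonatal cardiomyocyte, 0.0402, limma). With 2 arrays a group, and no detection call, small differences and genes near the ends of the scale are the least certain.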
